A study of Rattus norvegicus with 12 samples.

Results

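Nf1x, Cdyl, Rere, Homer1, Fam120a, Crim1 and Camsap1 are genes whose exons are spliced into circular RNAs (circRNAs) in many mammals, and these 7 host genes were followed here through liver circRNA libraries of diabetic rats. They were chosen by name, with earlier results of these data known. Their records were the table entries that carry 1 of the 7 symbols, together with entries that carry an Ensembl identifier but share a transcript or a junction with them. This gave 77 of 21876 table entries, 72 of 21069 back-splice junctions and 7 of 6021 host genes. Nf1x is the spelling of the deposited table, and RefSeq (GRCr8) lists it as a synonym of Nfix.

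The animals were wild type Wistar rats. For 4 weeks they ate a diet that drew 60% of its calories from fat, and after a 16 h fast they received 1 intraperitoneal injection of 35 mg/kg streptozotocin, which kills the insulin-producing cells of the pancreas. Rats whose fasting glucose exceeded 16.7 mmol/L 3 days later entered the study, so every group compared here carries both the diet and the toxin, and no untreated rat is among the libraries. There were 5 libraries from rats after a sham operation, 5 from rats 3 months after sleeve gastrectomy, which removes most of the stomach, and 2 from rats in which diabetes had relapsed after sleeve gastrectomy. The labels give neither an age nor a time of sampling for the sham and relapse groups, and they do not say that every library stands for its own rat, so the spread on which p-values rest is that between samples and may be technical.

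A circRNA forms when the end of an exon is joined back to the start of the same or an earlier exon, a reaction called back-splicing that competes with linear splicing of the same transcript. The closed loop has no free ends, resists exonucleases such as RNase R, and can outlast the linear messenger RNA of its gene. Introns that pair with each other through inverted repeats, and proteins such as Quaking, are known to favour the reaction, and circles from the same exons of one gene are often found in several species. A read across the back-splice junction identifies the circle, and such reads were counted. Each circle is counted at its junction alone, so levels are given per junction or as sums of junctions and not per length.

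The libraries held 18176 to 37229 back-splice reads, so in the smallest library 0 reads left room for up to 165 RPM, the number of reads per 1000000 back-splice reads. Such limits and counting intervals cover counting error only. Of the 11 hepatocyte markers looked up, 9 had circRNA reads, at a summed level of 27535 to 39723 RPM in sham livers. The sums were 24715 to 40216 RPM with sleeve gastrectomy and 21328 to 22053 with relapse. Endothelial markers (4 of 6 with reads) summed to 275 to 917 RPM, stellate cell markers (3 of 7) to at most 344, Kupffer cell markers (1 of 7) to at most 98.3 and leukocyte markers (1 of 4) to at most 47.3, while 0 of 4 cholangiocyte and 0 of 5 pancreatic markers had a read. In bulk liver, fewer cells of a type and less circRNA per cell cannot be told apart.

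The 7 hosts together gave 11936 reads, 4.19% of all back-splice reads, and 3.60 to 4.88% in single libraries. This share averaged 4.13% ± 0.465 (SD, n = 5) in the sham group. The mean after sleeve gastrectomy was 4.29% ± 0.510 (SD, n = 5), and that of the 2 relapse libraries was 4.24% ± 0.109 (SD, n = 2). Their levels fell into steps. Over the 12 libraries the means were 18252 ± 3270 RPM (SD, n = 12) for Nf1x, 11334 ± 2245 for Cdyl, 4406 ± 640 for Rere, 2997 ± 1637 for Homer1, 2243 ± 670 for Fam120a, 2120 ± 417 for Crim1 and 785 ± 439 for Camsap1. Nf1x and Cdyl ranked 3 and 4 among all hosts by mean RPM, Rere 18, Homer1 33, Fam120a 53, Crim1 59 and Camsap1 216. Ranges of neighbours overlapped except between Cdyl, whose lowest library stood at 9003 RPM, and Rere, whose highest stood at 5275.

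**Figure D1:**
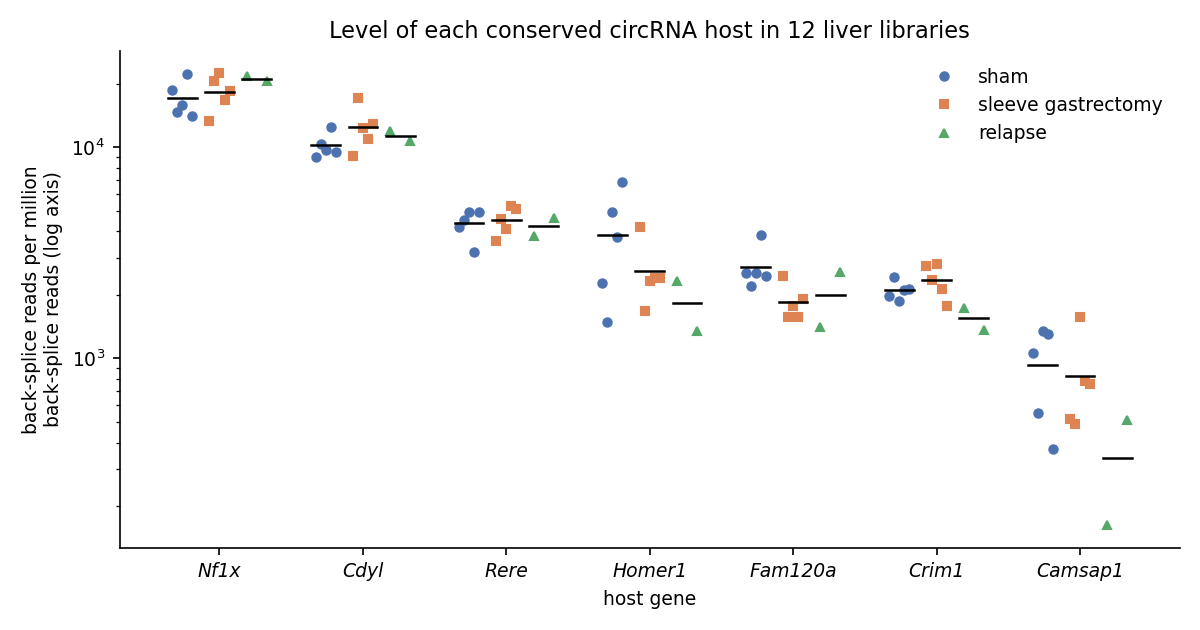
Level in RPM (log axis) of the 7 host genes, 1 point per library, with sham, sleeve gastrectomy and relapse side by side and a black line at each group mean. Nf1x and Cdyl lie at 9003 RPM or more in every library, while Homer1 and Camsap1 have the widest scatter, from 1343 to 6834 and from 162 to 1564 RPM.

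The circles themselves were of 2 sorts. Nf1x, Cdyl, Homer1, Camsap1 and Fam120a each put 74.0 to 99.7% of their reads into a single junction, whereas the main junction of Rere held 33.3% and that of Crim1 31.7%. The effective number of junctions, the inverse of the summed squared shares, was 1.01 for Nf1x, 1.13 for Cdyl, 1.18 for Homer1, 1.47 for Camsap1 and 1.72 for Fam120a, against 5.30 for Rere and 5.29 for Crim1. Among the 243 other hosts with at least 200 reads the median share of the main junction was 73.3%, and 63 of them (25.9%) stood at 90% or more. Of these other hosts, 4.53% had a higher main share than Nf1x, whereas 95.1% had a higher one than Rere and 95.5% a higher one than Crim1.

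The exon numbers that the table lists were consecutive in all 56 exonic symbol entries of the 7 hosts, and 0 of the 56 contained exon 1, against 74 of 16014 entries (0.462%) of the other hosts. The main circles of Nf1x, Homer1, Fam120a and Camsap1 began at exon 2, so this held for 4 of the 7 hosts. Among the 180 other hosts with at least 200 reads in such entries the main circle began at exon 2 in 59 (32.8%). Of the reads in exonic symbol entries, circles of 1 exon gave 70.2% in the 7 hosts, against 7.15% in all other hosts. Nearly all of the former belonged to Nf1x and Cdyl. These shares were not tested against each other.

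Nf1x encodes nuclear factor I X, a DNA-binding transcription factor of the nuclear factor I family. Its reads came almost entirely from circRNA820, a circle made of exon 2 alone (531 bases, chr19:25886357-25886887, minus strand, Rnor_6.0), with 5188 of the 5206 Nf1x reads. The share of this junction was 98.9 to 100% in every library. The other 6 Nf1x junctions had 1 to 7 reads each. Nf1x stood at 18601, 14690, 15875, 22163 and 14041 RPM in sham libraries 1 to 5. After sleeve gastrectomy it stood at 13374, 20489, 22383, 16678 and 18422 RPM, and in relapse at 21816 and 20495 RPM. Both relapse libraries lay inside the range of the other groups, in its upper part.

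Cdyl encodes a chromodomain protein that acts as a co-repressor at chromatin. Its main circle, circRNA508, also consisted of a single exon, exon 5 (657 bases, chr17:29730438-29731094, minus strand), and held 3003 of 3198 reads. A second circle, circRNA509, added exon 4 to the same exon 5 and held 154 reads (4.82%), with reads in all 12 libraries. Cdyl stood at 9003, 10343, 9734, 12435 and 9531 RPM in sham and at 9121, 17050, 12297, 10976 and 12943 after sleeve gastrectomy. The relapse libraries had 11909 and 10664 RPM, between the extremes of both other groups. The highest Cdyl value, in sleeve gastrectomy library 2, was carried by both circles, with 15871 RPM of circRNA508 and 983 RPM of circRNA509.

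Rere encodes an atrophin-family repressor that works with nuclear receptors and histone deacetylases. Its reads were spread over 23 junctions. The leading circle, circRNA1416, joined exons 5 to 7 (chr5:167516582-167526275, plus strand) and held 423 of 1272 reads. It was followed by circRNA1412 with exons 4 to 7 (273 reads, 21.5%), circRNA1415 with exons 5 to 8 (173 reads, 13.6%) and circRNA2780 with exons 5 to 10 (99 reads, 7.78%). Of the 7 further junctions with at least 20 reads, circRNA1413, circRNA1411, circRNA4512 and circRNA1414 began at exon 4, and circRNA8806 at exon 5. CircRNA6188 joined exons 8 to 10 and circRNA1410 consisted of exon 2. Circles that began at exon 5 took 56.8% of Rere reads and those that began at exon 4 took 37.4%. The downstream end was more mixed, with exon 7 in 54.7%, exon 8 in 17.8% and exon 10 in 15.6% of reads.

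The level of Rere was the steadiest of the 7. It stood at 4203, 4511, 4945, 3209 and 4928 RPM in sham, at 3592, 4570, 4099, 5275 and 5102 after sleeve gastrectomy, and at 3789 and 4647 in relapse. The groups overlapped throughout. The mix of circles differed most in sleeve gastrectomy library 2. There the exon 5 to 7 circle made up 18.3% of Rere reads (17 of 93), against 34.8 to 40.8% in the other sleeve gastrectomy libraries. Circles ending at exon 7 made up 28.0% in that library and those ending at exon 10 made up 35.5%, while in the other 11 libraries exon 7 took 48.4 to 65.3% and exon 10 took 8.05 to 22.0%. The total level of Rere in that library, 4570 RPM, was near the group mean of 4527 ± 698 (SD, n = 5).

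**Figure D2:**
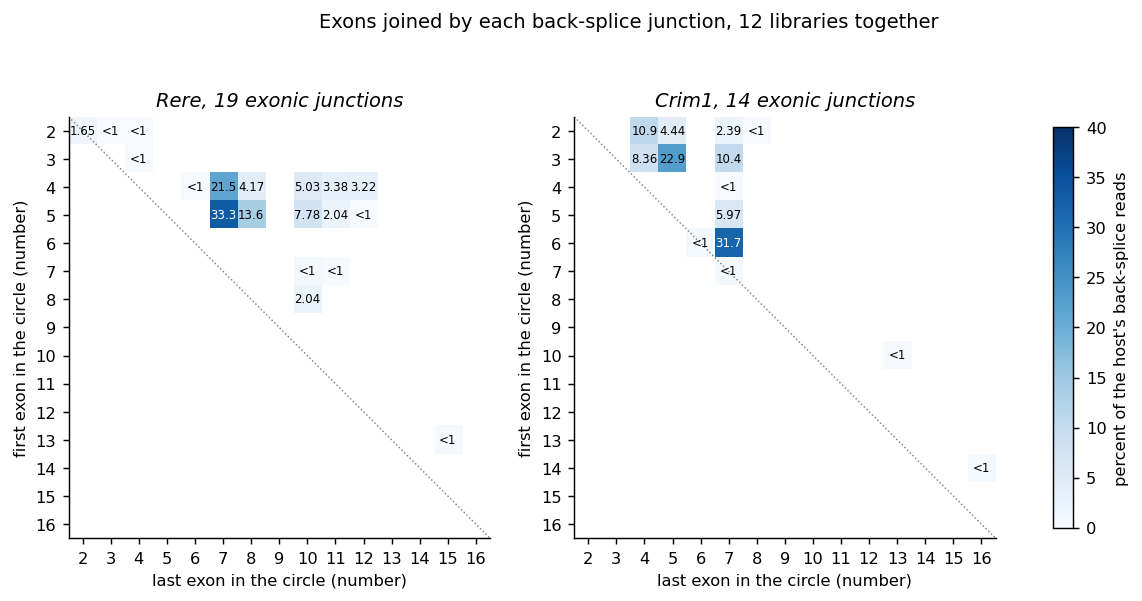
First exon (vertical axis) and last exon (horizontal axis) of each exonic circle of Rere and Crim1, with the percent of the host's reads over 12 libraries written in each square and shown by its shade. Rere circles share the starts at exons 4 and 5 and fan out to several ends, and Crim1 circles combine starts at exons 2, 3 and 6 with ends at exons 4, 5 and 7.

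Fam120a encodes an RNA-binding protein of the constitutive coactivator family. Its main circle, circRNA489, joined exons 2 and 3 (chr17:16124901-16129065, plus strand) with 473 of 639 reads. CircRNA490 joined the next pair, exons 4 and 5 (112 reads, 17.5%), and circRNA3504 ran over all of exons 2 to 5 (41 reads, 6.42%). Fam120a stood at 2549, 2201, 2550, 3861 and 2464 RPM in sham, against 2457, 1572, 1780, 1573 and 1917 after sleeve gastrectomy. The ranges touched only through sleeve gastrectomy library 1, which lay above sham library 2. The relapse libraries had 1407 and 2579 RPM and so spanned both groups. The main circle held 92.5% of Fam120a reads in sham library 2 and 61.2 to 70.1% in the other sham libraries. CircRNA490 had 0 reads in sleeve gastrectomy library 3, which allows up to 162 RPM.

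Homer1 encodes a scaffold protein that links receptors to calcium stores, best known at synapses, where its circle has also been studied. In liver 750 of its 815 reads belonged to circRNA1763, which joined exons 2 to 5 (chr2:22950024-22964734, plus strand). A shorter form, circRNA4936 with exons 2 to 4, had 21 reads, and a separate circle of exons 6 to 8, circRNA10225, had 23. Homer1 had, with Camsap1, the widest scatter of the 7. It stood at 2284, 1485, 4945, 3761 and 6834 RPM in sham libraries 1 to 5, at 4206, 1671, 2319, 2392 and 2397 after sleeve gastrectomy, and at 2328 and 1343 in relapse. The highest library was 5.09 times the lowest. Sham libraries 3, 4 and 5 and sleeve gastrectomy library 1 stood at 3761 RPM or more, and the other 8 at 2397 or less.

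Camsap1 encodes a protein that binds the minus ends of microtubules. All 220 of its reads came from circles that began at exon 2. The main circle, circRNA4742, joined exons 2 and 3 (chr3:3413580-3414759, minus strand) with 179 reads, and circRNA1607 ran from exon 2 to exon 6 with 22. Camsap1 stood at 1059, 550, 1353, 1304 and 372 RPM in sham, at 520, 491, 1564, 786 and 753 after sleeve gastrectomy and at 162 and 510 in relapse. Relapse library 1 had the lowest level of the 12, from 3 reads, and none of these was circRNA4742. The 0 reads allow up to 162 RPM of that circle in a library of 18473 reads.

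Crim1 encodes a transmembrane protein with cysteine-rich repeats that binds bone morphogenetic proteins. Like Rere, it used several circles. CircRNA1125 joined exons 6 and 7 (chr6:904492-907083, plus strand) with 186 of 586 reads, and circRNA1122 joined exons 3 to 5 with 134 (22.9%). CircRNA1120 with exons 2 to 4 had 64 reads, circRNA1121 with exons 3 to 7 had 61 and circRNA1123 with exons 3 and 4 had 49. CircRNA1124 with exons 5 to 7 had 35 and circRNA1119 with exons 2 to 5 had 26. Exon 7 closed 51.4% of the reads, exon 5 closed 27.3% and exon 4 closed 19.3%.

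The summed level of Crim1 was 1986, 2421, 1874, 2106 and 2139 RPM in sham. It was 2741, 2358, 2805, 2130 and 1781 RPM after sleeve gastrectomy and 1732 and 1370 RPM in relapse. Both relapse libraries were thus below every library of both other groups. Across all hosts tested, 10.3% did not overlap between relapse and sleeve gastrectomy and 10.1% between relapse and sham. The share of the main circle ranged more widely, from 13.8% in sleeve gastrectomy library 1 to 61.4% in sham library 2, on 32 to 65 Crim1 reads per library.

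**Figure D3:**
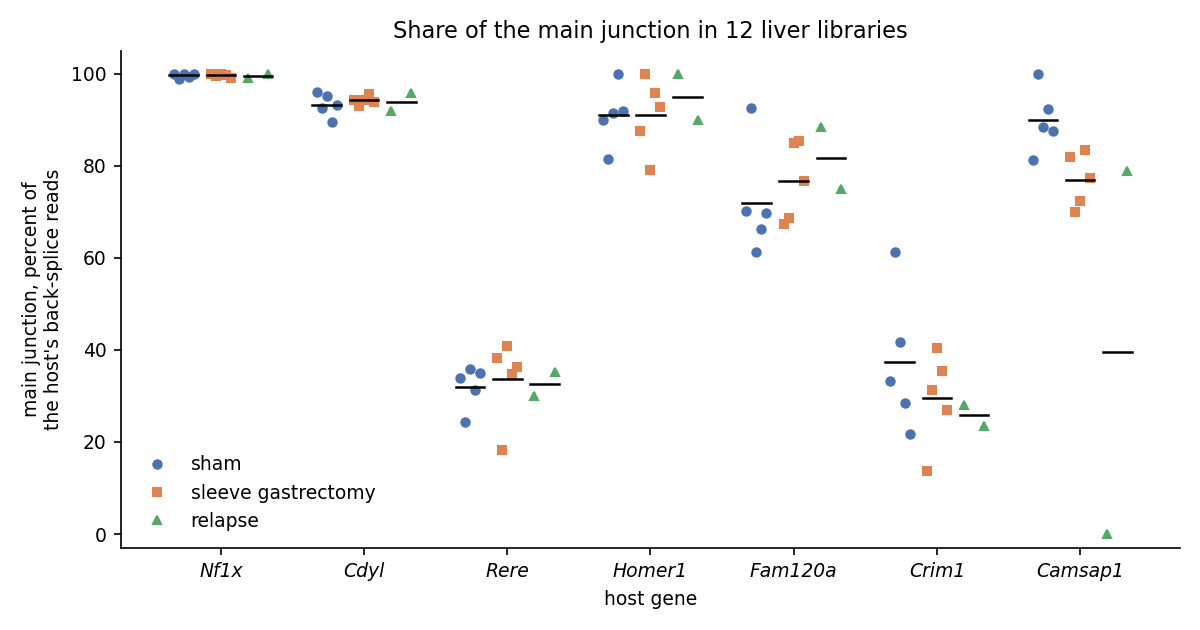
Percent of each host's back-splice reads carried by its main junction, 1 point per library, with a black line at each group mean. Nf1x stays at 98.9 to 100% and Cdyl at 89.5 to 96.0%, Rere lies at 18.3 to 40.8% and Crim1 at 13.8 to 61.4%, and the Camsap1 point at 0% is relapse library 1 with 3 Camsap1 reads in all.

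How far the levels of these hosts spread was set beside what counting alone would give. The coefficient of variation over 12 libraries (CV) was 14.5% for Rere and 19.6% for Crim1, where counting error alone gave 10.1% and 14.5%. For Nf1x it was 17.9% against 4.94%, for Cdyl 19.8% against 6.27% and for Fam120a 29.9% against 14.1%. Homer1 had 54.6% against 12.2% and Camsap1 55.9% against 23.8%. Of the 243 other hosts with at least 200 reads, 6.58% had a higher CV than Homer1 and 3.29% a higher ratio of observed to counting CV. Nf1x had a lower CV than 95.9% of them, yet only 4.94% exceeded its ratio, because its counting error was small.

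**Figure D4:**
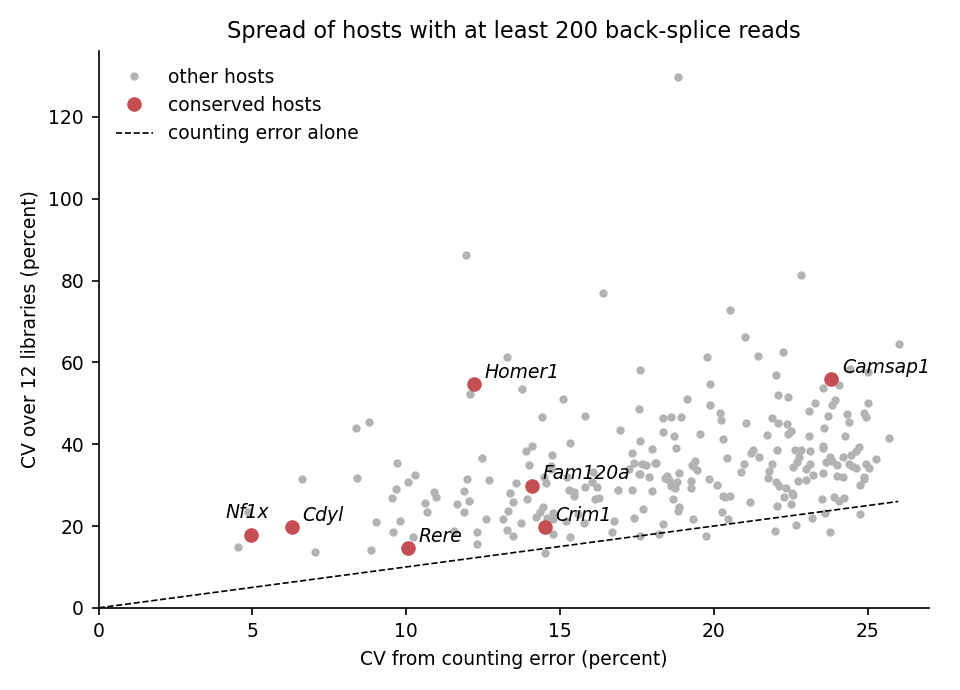
CV of the level over 12 libraries against the CV expected from counting error, both in percent, for hosts with at least 200 back-splice reads, with the 7 conserved hosts in red and the dashed line where both are equal. All 7 lie above the line, and Homer1, at 54.6% against 12.2%, stands farthest above it in ratio among them.

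Sleeve gastrectomy was set against sham to see whether any of these hosts differs after the operation in diabetic rats. Cdyl averaged 12477 ± 2944 RPM (SD, n = 5) after sleeve gastrectomy against 10209 ± 1334 in sham, and Nf1x averaged 18269 ± 3478 against 17074 ± 3337. Fam120a averaged 1860 ± 365 against 2725 ± 651, with 5 of 5 sleeve gastrectomy libraries below the sham mean. That mean was raised by sham library 4, at 3861 RPM beside 2201 to 2550 in the other sham libraries. Sleeve gastrectomy library 1, at 2457 RPM, lay within the latter range. Homer1 averaged 2597 ± 949 against 3862 ± 2131. Rere averaged 4527 ± 698 against 4359 ± 714, Crim1 2363 ± 428 against 2105 ± 205 and Camsap1 823 ± 435 against 928 ± 445. In the edgeR test across 1337 hosts, 0 of the 7 passed an FDR of 0.05, and each had an adjusted p of 0.997. Over all hosts 2 passed, which is 0.15%. The log2 fold change was -0.56 with SE 0.26 for Fam120a, the only 1 of the 7 under 0.05 before adjustment, where 3.74% of all hosts were under 0.05. It was -0.58 with SE 0.31 for Homer1 and 0.28 with SE 0.18 for Cdyl, and between -0.19 and 0.15 for the other 4. The Homer1 value was -0.25 without sham library 5 and -0.79 without sleeve gastrectomy library 1. The groups overlapped for all 7 hosts, and across all hosts tested 0.823% did not overlap. The median of the 7 log2 fold changes was 0.05, beside 0.00 over all hosts.

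The interval of these differences shows what the libraries can resolve. For Nf1x the 95% interval of the log2 fold change ran from -0.26 to 0.43 and for Rere from -0.38 to 0.49. For Homer1 it ran from -1.22 to 0.07 and for Camsap1 from -0.96 to 0.57, so a change of 1 log2 unit lay outside the interval for the former pair and, in the downward direction, inside it for Homer1.

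At the level of single circles, 21 of the 72 junctions passed the filter on low counts and 0 passed the edgeR FDR of 0.05 after sleeve gastrectomy, as did 0 of all 1520 junctions (0%). DESeq2 and limma-voom also called 0 of the 21. The 1 of these 21 junctions with an unadjusted p under 0.05, beside 3.88% of all junctions, was circRNA1121 of Crim1, the circle of exons 3 to 7. It stood at 132, 110, 0, 0 and 186 RPM in sham and at 803, 295, 162, 229 and 308 after sleeve gastrectomy. The 2 groups overlapped between 162 and 186 RPM, and sleeve gastrectomy library 1 with 17 reads was the highest. The log2 fold change was 1.96 with SE 0.84 (edgeR adjusted p = 0.995), from 10 reads in sham and 42 after sleeve gastrectomy. It was chosen after its value was seen. The main circles of Homer1 and Fam120a gave log2 fold changes of -0.57 (SE 0.36) and -0.43 (SE 0.27), close to those of their hosts.

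Relapse was compared with sleeve gastrectomy and with sham. Both comparisons use the same 2 relapse libraries, so their values are given side by side and do not stand as separate evidence. The summed hepatocyte markers in the relapse libraries lay below those of all 10 others, as given above. Of their mean of 31059 RPM over the 12 libraries, 18815 came from Cyp2c7, so the sum rests largely on 1 gene. Cyp2c7 was itself called lower in relapse against sleeve gastrectomy by limma-voom, but not by edgeR or DESeq2. Against sham it was likewise called by limma-voom alone of these methods. The part of these markers in the results was not tested.

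Crim1 averaged 1551 ± 256 RPM (SD, n = 2) in relapse, 2363 ± 428 after sleeve gastrectomy and 2105 ± 205 in sham. Its log2 fold change was -0.65 with SE 0.34 against sleeve gastrectomy and -0.50 with SE 0.34 against sham. Crim1 was the 1 host of the 7 whose relapse range did not overlap with either group, in a table where 10.3% and 10.1% of all hosts did not overlap. Camsap1 averaged 336 ± 246 RPM in relapse, with a log2 fold change of -1.18 (SE 0.55, edgeR adjusted p = 1) against sleeve gastrectomy and -1.37 (SE 0.56, edgeR adjusted p = 0.653) against sham. Its relapse reads numbered 3 and 19. Without relapse library 1 these values were -0.60 and -0.78, and without relapse library 2 they were -2.39 and -2.58. The medians over all hosts were -0.05 and -0.07 in the former fit and -0.33 and -0.35 in the latter. Homer1 averaged 1835 ± 696 RPM in relapse, with log2 fold changes of -0.56 (SE 0.43) and -1.14 (SE 0.44, edgeR adjusted p = 0.653).

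None of these passed adjustment. The edgeR test called 0 of the 7 against sleeve gastrectomy (each adjusted p = 1, with 1 of 7 under 0.05 unadjusted) and 0 of the 7 against sham (smallest adjusted p = 0.653, with 2 of 7 under 0.05 unadjusted). Over all hosts 0.0748% and 0.15% passed, and 4.34% and 5.91% were under 0.05 unadjusted. DESeq2 and limma-voom called 0 of the 7 in each comparison. Fam120a averaged 1993 ± 828 RPM in relapse, Nf1x 21155 ± 934, Cdyl 11287 ± 881 and Rere 4218 ± 606, with log2 fold changes between -0.46 and 0.26 in both comparisons. The median of the 7 was -0.18 against sleeve gastrectomy and -0.46 against sham, beside -0.05 and -0.08 over all hosts.

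Among single circles, 0 of 21 passed in either comparison, beside 0% of all junctions, and 0 and 1 had an unadjusted edgeR p under 0.05, as did 4.87% and 5.86% of all junctions. The latter was circRNA4742 of Camsap1 against sham. It stood at 861, 550, 1197, 1203 and 325 RPM in sham, at 425, 344, 1133, 655 and 582 after sleeve gastrectomy and at 0 and 403 in relapse. Relapse library 2 lay inside both other ranges. The log2 fold change against sham was -1.75 with SE 0.71 (edgeR adjusted p = 0.703). With relapse library 2 left out the circle passed in both comparisons, on the 0 reads of relapse library 1 alone. In that fit the median log2 fold change of all junctions was -0.61 against sleeve gastrectomy and -0.64 against sham. With all 12 libraries these medians were -0.07 and -0.04, so low values were common in the fit on relapse library 1.

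**Figure D5:**
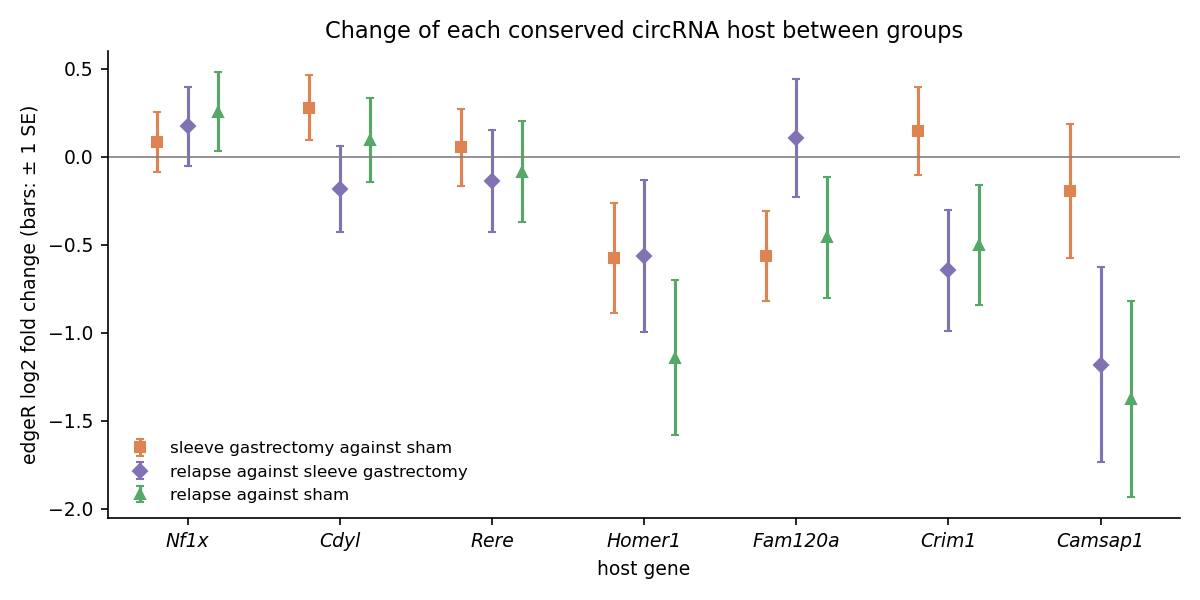
Log2 fold change of each host from edgeR with bars of 1 SE on each side, for sleeve gastrectomy against sham (squares), relapse against sleeve gastrectomy (diamonds) and relapse against sham (triangles). Nf1x, Cdyl and Rere stay within 0.28 of 0 and Camsap1 against sham reaches -1.37 with an SE of 0.56, and 0 of the 21 values passed an FDR of 0.05.

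Whether a host shifted between its own circles was asked with the share of the main junction, by exact two-sided permutation tests over libraries for 7 hosts and 3 comparisons. The smallest p in these 21 tests belonged to Camsap1. Its main circle held 81.2, 100, 88.5, 92.3 and 87.5% of Camsap1 reads in sham libraries 1 to 5 and 81.8, 70.0, 72.4, 83.3 and 77.3% after sleeve gastrectomy. The means were 89.9% ± 6.90 (SD, n = 5) and 77.0% ± 5.78 (SD, n = 5), and the ranges overlapped through sham library 1. These shares came from 8 to 32 Camsap1 reads per library in sham and 10 to 29 after sleeve gastrectomy. Summed over libraries, the main circle held 90 of 102 reads in sham and 74 of 96 after sleeve gastrectomy. The difference of -12.9 percentage points between the means had an exact permutation p of 0.0238 and an adjusted p of 0.5 over the 21 tests. In relapse the Camsap1 share was 0 of 3 reads and 78.9% of 19 reads, with an exact permutation p of 0.0476 against sham, the smallest that 2 libraries against 5 can give, and an adjusted p of 0.5. The other 19 tests had adjusted p values of 0.984 by the same exact test. Shares of Nf1x differed by less than 0.2 percentage points between group means and those of Cdyl by less than 1.

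Other widely conserved hosts were looked up from a list of 61 symbols, of which 48 were in the table and 28 passed the filter. In each comparison edgeR called 0 higher and 0 lower, with 0 under an unadjusted p of 0.05. Their median log2 fold changes were 0.12 after sleeve gastrectomy, -0.16 in relapse against sleeve gastrectomy and 0.00 in relapse against sham, beside 0.00, -0.05 and -0.08 over all hosts. By reads the first was Psd3, an exchange factor for ARF6-type GTPases, with 4906 ± 613 RPM (SD, n = 5) in sham, 6035 ± 1248 (SD, n = 5) with sleeve gastrectomy and 5442 ± 1877 (SD, n = 2) with relapse, the order kept for the others. Pan3, a subunit of a poly(A) nuclease, had 4415 ± 841, 4405 ± 697 and 3559 ± 95.5 RPM. Ash1l, a histone methyltransferase, had 2134 ± 336, 2208 ± 225 and 1834 ± 162 RPM. Hipk3, a nuclear kinase whose exon 2 circle is well known, had 1601 ± 524, 1581 ± 341 and 2156 ± 370 RPM, and Elf2, an ETS transcription factor, had 1197 ± 457, 1438 ± 377 and 916 ± 224 RPM.

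For each of the 7, the tested host whose level followed most closely the same pattern over the 12 libraries was found by the root mean square difference of centred log2 CPM, counts scaled to 1000000 reads of the tested hosts after TMM. The nearest were Pde4dip for Nf1x (0.23), Hdac4 for Cdyl (0.23), Rreb1 for Rere (0.21), Yap1 for Homer1 (0.41), Nfia for Fam120a (0.29), Rab6a for Crim1 (0.18) and Nmi for Camsap1 (0.43). The median distance to all tested hosts was 0.97 for Nf1x and 1.12 for Homer1. The SD of each host's own log2 CPM was 0.26 for Nf1x, 0.24 for Cdyl and 0.24 for Rere, little above their distances. It was 0.27 for Crim1, 0.40 for Fam120a, 0.66 for Homer1 and 0.83 for Camsap1. Yap1 itself had 154 reads and Nmi 58, so counting error makes up part of these distances, and hosts that vary little lie near each other whatever their pattern.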

How the data were processed

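Per the labels' protocols, ribosomal RNA was removed and RNase R, which degrades linear RNA, was applied before sequencing. The authors deposited 1 table with a back-splice read count and a normalised signal (SRPBM) per library; the counts were whole numbers and were used, and SRPBM was not used further. Per the submitters' processing notes the tools were cutadapt 1.9, FastQC and TopHat2 2.0.10 and the build was Rnor_6.0. The caller of back-splice reads and the use of strand in counting: not given in the sources used here. Coordinates are those of the table, counted from 1, and exon numbers are those listed there, which matched the exon count of each of the 56 exonic symbol entries.

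Entries that name a gene by symbol and by Ensembl identifier were joined through shared gene records, transcripts or junctions (1449 of 1696 identifiers) and summed per junction and per host. In the 7 hosts 5 junctions were written as 2 entries, and 0 libraries had reads in both. Identifier entries held 1.80% of their reads and 0 single reads among 45 values above 0, against 43 of 328 in symbol entries. RPM divide a count by the library's total of back-splice reads.

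edgeR 4.0.16 in R 4.3.3 (TMM, a mean per group, robust quasi-likelihood F-test, filterByExpr with a minimum count of 5 and total of 15) was fitted to all 12 libraries, with Benjamini-Hochberg adjustment over 1337 hosts or 1520 junctions at an FDR of 0.05. It was also run on simulated counts that shared a common spread and changed strongly in the sleeve gastrectomy group alone. That run did not cover the relapse comparisons or small changes. SE are the log2 fold change over the square root of F, and 95% intervals use the t distribution with the test's degrees of freedom. Alternatives were DESeq2 1.42.0, limma-voom (limma 3.58.1), other scalings, filters, entries and samples, a replicate block, and each library left out. Same-numbered sham and sleeve gastrectomy libraries deviated with correlations of -0.0909 to 0.0179, so numbers were not taken as pairs. Libraries of a group differed by 2.68 to 4.24 chi-square units per degree of freedom, more than counting error alone gives. Separate preparations from 1 rat could also differ by more than counting error, so repeats of a rat were not excluded.

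All 7 hosts, each host's main junction and its junctions with at least 20 reads, the nearest host of each and the 6 other conserved hosts with the most reads are named by rule, of which 1 is not reported here. The members, the lists and the rule were chosen with earlier results of these data known. Figures were drawn with matplotlib 3.10.9.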

Additional observations from a re-analysis of the deposited data

Results flagged for a closer look

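Of the 28 sets of 5 libraries examined (level and main junction share of 7 hosts in sham and in sleeve gastrectomy), 5 had 1 library farther from its neighbours than Dixon's 95% limit, where chance gives about 1.4. In Homer1, sleeve gastrectomy library 1 stood at 4206 RPM and the other 4 at 1671 to 2397. In Fam120a, sham library 4 stood at 3861 RPM and the others at 2201 to 2550. In Camsap1, sleeve gastrectomy library 3 stood at 1564 RPM and the others at 491 to 786. The main circle of Rere held 18.3% of its reads in sleeve gastrectomy library 2 and 34.8 to 40.8% in the others. The main circle of Fam120a held 92.5% in sham library 2 and 61.2 to 70.1% in the others. The 5 values come from 5 different libraries.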

How the results depend on the processing

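None of the 7 hosts passed an FDR of 0.05 in any of the 378 alternative values of their log2 fold changes, of which 370 kept their direction and the smallest adjusted p was 0.199 (Homer1, relapse against sham, without sham replicate 2). With each library left out, log2 fold changes that turned sign ranged for Rere from -0.0197 to 0.14 after sleeve gastrectomy, from -0.37 to 0.11 in relapse against sleeve gastrectomy and from -0.31 to 0.17 in relapse against sham. They ranged for Fam120a in relapse from -0.50 to 0.55 against sleeve gastrectomy and from -1.06 to 0.0034 against sham. Its circRNA489 ranged from -0.41 to 0.52 and from -0.81 to 0.12. The Fam120a and Camsap1 values rest on which of the 2 relapse libraries was left out, since the remaining one is then assumed to vary like the other groups. Homer1 kept its sign but ranged from -0.79 to -0.25 after sleeve gastrectomy, from -0.87 to -0.25 in relapse against sleeve gastrectomy and from -1.43 to -0.81 in relapse against sham. Rere in relapse against sham was 0.0067 with symbol entries alone and 0.0075 with host names as written. The Camsap1 share difference, relapse against sleeve gastrectomy, ranged from -77.0 to 1.98 percentage points, the last without relapse replicate 1 and its 3 reads. Without relapse replicate 2, circRNA4742 of Camsap1 passed in both relapse comparisons. No other junction of the 7 hosts passed under any setting.

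Counts over the whole table were small and moved. Hosts called after sleeve gastrectomy (2) became 0 with host names as written, with DESeq2, with only the 2 groups compared and with a minimum count of 10, 1 with symbol entries alone, and 0 to 2 with a library left out. Hosts called in relapse against sleeve gastrectomy (1) became 0 with DESeq2, symbol entries alone, host names as written, the minimum count of 10 and only the 2 groups compared, 2 with no low-count filter, and 0 to 1 with a library left out. Hosts called in relapse against sham (2) became 1 under those settings other than DESeq2, 3 with limma-voom, RLE size factors, no TMM and no low-count filter, and 0 to 5 with a library left out (5 without sham replicate 5, 0 without relapse replicate 1). Junctions called in relapse (0) became 2 and 1 with no filter, against sleeve gastrectomy and sham, 1 against sham with limma-voom, and 0 to 9 and 0 to 8 with a library left out. With the replicate block, junctions called were 1, 2 and 1 and hosts called were 2, 1 and 3 in the 3 comparisons, and none belonged to the 7 hosts. The correlations given above showed no pairing by number, though low counts could hide one. At 18176 to 37229 reads per library, Camsap1 and the lesser circles of every host rest on few reads each, and the 2 relapse libraries limit every comparison with them.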

Other observations

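The table also types 14 junctions of these hosts as intronic. Of these, 4 are short Rere entries of 189 to 1023 bases with 5 reads in all. The other 10 are identifier entries with 62 reads, and 9 of them, in Nf1x, Cdyl and Homer1, share 1 end with the main exonic circle of their host and end at a position of the table's intronic type on the other side. The most abundant was ciRNA915 of Cdyl, which shares 1 end with the exon 5 circle and spans 73548 bases, with 20 reads in 5 libraries. ciRNA1275 of Cdyl shares the other end and had 13 reads. ciRNA186 of Nf1x had 7 reads in 2 libraries and shares an end with the exon 2 circle. The shortest of the 9 spans 7544 bases.

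Junctions of Homer1 changed between their 2 written forms from library to library. The circle of exons 6 to 8 appeared as the symbol entry circRNA10225 in 4 libraries, with 13 reads, and as the identifier entry circRNA5810 in 3 others, with 10 reads. The exon 2 to 4 circle of Camsap1 appeared as circRNA4741 in 5 libraries, with 10 reads, and as circRNA10587 in 2 others, with 7 reads.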
